A study of Oryza sativa Japonica Group and Oryza sativa with 4 samples.

Results

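The heat shock protein and factor genes of rice were described here in the leaf, with and without feeding by the green rice leafhopper (GRH). The members were the genes with a transcript whose deposited description contains heat shock, heat-shock, HSP20, HSP70 or HSP90, in any letter case. This rule found 176 of 37849 genes, and it used no measured value. The descriptions placed 7 of them among the class I small heat shock proteins (sHSP) and 3 among class II, which are reported apart from the other 30 genes with HSP20 or small heat shock words. Another 28 were HSP70 genes, 11 were HSP90 genes or activators of the HSP90 ATPase, 3 were ClpB/HSP101 genes, 63 were DnaJ (HSP40) genes, 17 were heat shock factor (HSF) genes or their binding proteins, and 14 were others. A gene described without these words, such as a factor called only a heat stress transcription factor, is not a member.

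Heat shock proteins are chaperones. In plants, HSFs bind the promoters of chaperone genes when proteins unfold, and the chaperones then hold, refold or disaggregate those proteins. The sHSPs hold unfolding proteins without using ATP, HSP70 folds them with its DnaJ co-chaperones, HSP90 matures signalling proteins that include immune receptors of the NB-ARC kind, and HSP101 pulls proteins out of aggregates. Transcripts of cytosolic sHSPs are usually scarce in unstressed leaves, whereas each chaperone family also has constitutive members that all leaf cells use.

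Ilpum is a japonica cultivar that is susceptible to GRH, labelled wild type. The near-isogenic line (NIL) carries the Grh1 resistance locus in the Ilpum background, from the indica donor Shingwang, so that line differences may come from any donor segment that it keeps, and it is a single line. Plants were sampled 21 days after germination, either as control or after 48 h with second instar nymphs at room temperature, and the sources used here describe no heat treatment. Control and infested seedlings alike had their roots rinsed of soil and were moved to tubes, per the study's methods.

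Values of 1 leaf library were deposited for each of the 4 conditions, although the study describes duplicates. There was therefore no replicate check, no test between conditions and no p-value. The conditions are given throughout in the order control and GRH of Ilpum, then control and GRH of NIL. Depth, as the sum of the estimated reads per gene, was 2119765, 894661, 5037081 and 1170099 reads, and the members took 1.02 to 1.60% of it. Levels are FPKM, which the authors computed per transcript length and per depth, and the gene value is the sum over its transcripts. A difference is the log2 fold change of FPKM with 1 added (log2FC), which understates the change of low genes. It was computed for the 18575 genes that averaged 1 FPKM or more over the libraries, here called read genes, and a gene at least 2-fold apart was counted as higher or lower. Beside it stands the exact 95% interval of the log2 ratio of reads, which covers counting error only and is too narrow because the reads of a pair are not independent. A library listed at 0 was set to a floor of 3 reads, and the fold is then given as a bound.

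Of the 176 members, 141 were read genes by this filter, 25 had no read in any library and 10 had a few reads. The member just below this filter was Os05g0367800, a BiP2-like HSP70, with a mean of 0.832 FPKM, and that just above it was the class I gene Os01g0136000, with 1.0 FPKM. Counts over the 141 describe these genes and no more, because a member can pass the filter through the library in which it is high. Libraries differed in how often they listed a gene at 0. The pooled reads of the other 3 libraries, scaled to depth, gave a predicted count. Of the members predicted to have at least 10 reads, 14 of 104 (13.5%) were listed at 0 in Ilpum GRH, against 7.19% of all genes there. In the other libraries the share of members was near or below that of all genes, with 0 of 124 in the Ilpum control (all genes 3.88%), 5 of 113 (4.42%) in the infested NIL (all genes 4.17%) and 4 of 137 (2.92%) in its control (all genes 4.33%). In the prediction for Ilpum GRH the deepest library, NIL control, weighs most, and it was highest for 36.9% of the read members (all genes 21.4%). The excess there can thus come in part from members that were high in NIL control. A listed 0 can also be a failed estimate, and Ilpum GRH was the shallowest library.

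The leaf label was checked with 26 genes whose descriptions hold the words of the Rubisco small subunit, Rubisco activase or the light-harvesting proteins, whose transcripts are among the most abundant of a leaf. These words also found the glycolate oxidase gene Os03g0786100 and Os07g0261200, a CCT-domain gene of heading date, and 4 of the 26 had no read in any library. Their summed level was 44590 and 21856 FPKM in Ilpum without and with GRH and 30725 and 10700 FPKM in NIL, so that it was 2.04-fold lower with GRH in Ilpum and 2.87-fold lower in NIL. Without Os03g0786100 and Os07g0261200 it was 2.03-fold and 2.93-fold lower. Its part in the results below was not tested. Of 8 genes found by root marker words, 5 had no read in any library. Os04g0554800, similar to RCc3, had 4 reads, in Ilpum GRH alone. Os04g0101800, a ubiquitin ligase gene of the root ethylene response by its description, had 8, 0, 45 and 0 reads. Os01g0691600, with 132, 73, 400 and 86 reads, is described as a DNA repair helicase and was found only through the letters of ERCC3. In such bulk samples, fewer cells of a type and less RNA per cell cannot be told apart.

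To see how GRH feeding related to these genes, each infested library was set against the control of its line. In Ilpum, 49 of the 141 members (34.8%) were at least 2-fold lower with GRH and 16 (11.3%) were higher, against 28.6% and 20.4% of all genes. The median log2FC of the members was -0.54, and that of all genes was -0.10. In NIL, 36 members (25.5%) were lower and 15 (10.6%) higher, against 20.9% and 14.7% of all genes, with medians of -0.20 and -0.06. With this filter the member shares on the lower side were a few percentage points above those of all genes, and the gap was wider with more reads. Where an average of 25 reads or more was required, 36 of 107 members were lower (33.6%) and 9 higher (8.41%) in Ilpum. All genes gave 22.8% and 14.1% there. In NIL, 27 were lower (25.2%) and 6 higher (5.61%), where all genes gave 14.3% and 10.4%.

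The responses of the lines share no library, so that they can be read against each other. Lower by at least 2-fold in both lines were 26 members (18.4%), against 9.39% of all genes. With the minimum of 25 reads these were 20 of 107 members (18.7%), against 5.78%. Higher in both were 5 members, where all genes gave 6.20%, and 4 members lay in opposite directions, where all genes gave 6.03%. The 26 held 3 class I and 1 class II sHSP, 7 other HSP20 genes, 3 HSP70 genes, 1 HSP90 gene, 1 HSP101 gene, 7 DnaJ genes, 1 HSF and 2 others, and 19 of them had their highest level in NIL control. The counting interval lay below 0 in both lines for 21 of the 26, and it reached 0 in at least 1 line for 5. Among these 5 were a pair of the class I genes, Os01g0136200 and Os01g0136100, which had 4 and 5 reads in Ilpum control against 0 in Ilpum GRH, too few for a direction in that line. Some of the 21, such as Os03g0266900 and Os05g0519700, were listed at 0 in Ilpum GRH. Neither the interval nor the floor covers a failed estimate there. In a gene that is lower in both lines the highest library is a control by construction. How often it was NIL control among all genes lower in both lines was not computed, so the 19 have no share beside them.

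**Figure D1:**
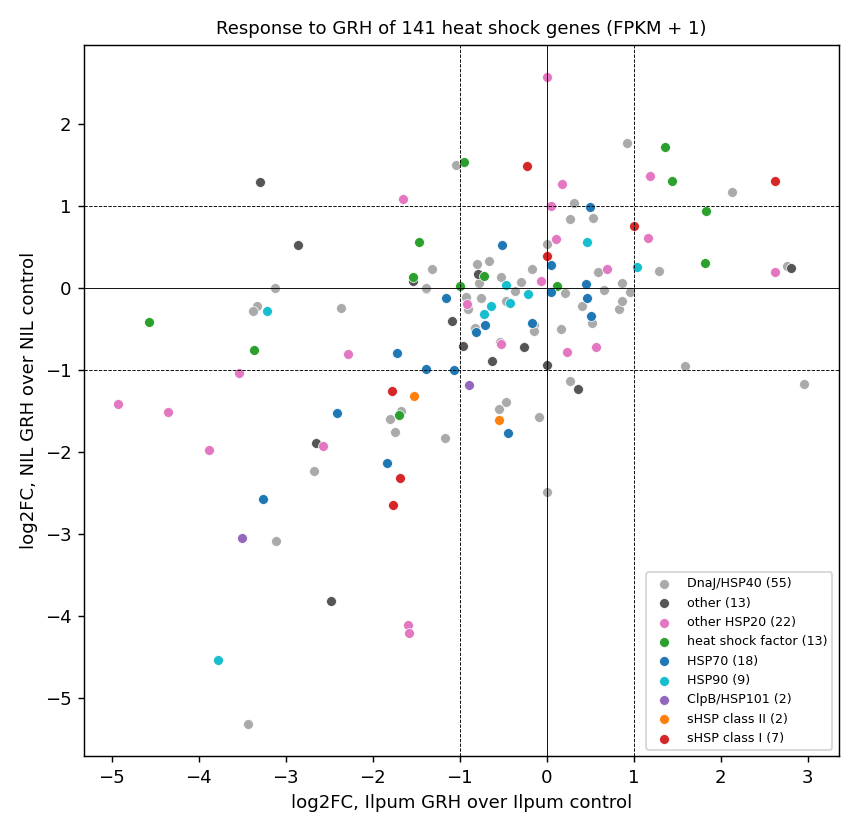
Log2FC of FPKM + 1 with GRH in Ilpum (horizontal) and in NIL (vertical) for the 141 read members, coloured by role, with the number of genes per role in the key. Dashed lines mark 2-fold. The lower left field holds 26 members, the upper right field 5.

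The lines were also compared with each other. Without GRH, 38 members (27.0%) were at least 2-fold higher in NIL and 10 (7.09%) lower, against 14.1% and 14.0% of all genes, and the median log2FC was 0.23 for the members and -0.02 for all genes. With GRH, 51 members (36.2%) were higher in NIL and 15 (10.6%) lower, against 25% and 23.7%, with medians of 0.34 and 0.00. With at least 25 reads, 26 of 107 were higher and 6 lower without GRH, where all genes gave 9.72% and 9.17%, and 40 were higher and 8 lower with GRH, where all genes gave 21.2% and 17.5%. NIL control was the library with the highest level for 52 of the 141 members (36.9%), against 21.4% of all genes. Ilpum control was highest for 33 (all genes 25.9%), Ilpum GRH for 29 (all genes 30.6%) and NIL GRH for 27 (all genes 22.1%). NIL control enters the comparison with NIL GRH and that with Ilpum control, so a value that is high in this library makes both differences larger. It was also the deepest library.

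The cytosolic sHSPs of class I and II were high in NIL control and lower with GRH. The summed FPKM of the 10 genes was 197 and 115 in Ilpum without and with GRH, and 536 and 231 in NIL. The sum was thus 1.71-fold lower with GRH in Ilpum and 2.32-fold lower in NIL, and it was 2.73-fold higher in NIL than in Ilpum without GRH and 2.01-fold higher with GRH. The intervals of the log2 read ratio were -1.06 to -0.38 and -1.40 to -1.01 for the responses in Ilpum and in NIL, and 1.26 to 1.58 and 0.58 to 1.3 for the line differences. Gene by gene, 4 of the 9 read genes were at least 2-fold lower with GRH in Ilpum (44.4%, all genes 28.6%) and 5 in NIL (55.6%, all genes 20.9%). Of the 4, Os01g0136200 and Os01g0136100 had at most 5 reads in either Ilpum library. In each line 2 genes were higher with GRH (22.2%, all genes 20.4% in Ilpum and 14.7% in NIL). Higher in NIL than in Ilpum were 7 genes without GRH (77.8%, all genes 14.1%) and 7 with GRH (all genes 25%). Some of these had few reads. Only 6 of the 9 averaged 25 reads or more, and 5 of the 6 were higher in NIL in each comparison. Among these 5, Os01g0136200 and Os01g0136100 had few reads in both infested libraries.

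A single class I gene gave much of this sum. Os03g0266300, which encodes the 17.9 kDa protein (IRGSP-1.0, chromosome 3, 8805567 to 8806556, plus strand), had 102 and 29.1 FPKM in Ilpum without and with GRH (193 and 24 reads), and 225 and 93.7 FPKM in NIL (1012 and 98 reads). NIL control was the highest and Ilpum GRH the lowest, while NIL GRH lay close to Ilpum control. Its log2FC with GRH was -1.78 in Ilpum (interval -2.44 to -1.15) and -1.25 in NIL (-1.58 to -0.96).

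A further 5 class I genes lie within 18565 bp on chromosome 1 (1934117 to 1952681), together with a further HSP20 gene, Os01g0136050, and their patterns were not alike. At one end, the genes of the 16.9 kDa protein were read mostly in NIL control. Os01g0136200 had 2.41, 0, 59.0 and 8.56 FPKM from 4, 0, 233 and 8 reads, and Os01g0136100 had 2.22, 0, 23.3 and 3.88 FPKM from 5, 0, 100 and 4 reads. Their log2FC in NIL was -2.65 (-3.99 to -1.76) and -2.32 (-4.44 to -1.14), and in NIL over Ilpum without GRH it was 4.14 (3.24 to 6.50) and 2.92 (1.80 to 4.73). In Ilpum they had too few reads for a direction. These genes share a description, so that reads may have been split between them.

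Their neighbour Os01g0135900, described as a class I protein 3C, went the other way. It had 24.5, 50.2, 21.2 and 36.5 FPKM from 46, 41, 93 and 38 reads, with the higher value in the infested library of each line. The log2FC with GRH was 1.01 in Ilpum (0.43 to 1.72) and 0.76 in NIL (0.23 to 1.37). Os01g0135800 had 0, 5.15, 1.86 and 6.07 FPKM from at most 8 reads, at least 3.16-fold higher by the floor in the infested Ilpum library. Os01g0136000 and Os02g0128000 had at most 6 reads in any library. The former overlaps Os01g0136050 on the opposite strand, and the values come from a stranded assembly, per the file headers.

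Class II held a pair of read genes. Os01g0184100, on chromosome 1 (4449070 to 4449876), is annotated with a role in bacterial blight resistance and in heat and salt tolerance. It had 39.3, 13.0, 100 and 39.8 FPKM from 71, 11, 424 and 40 reads, and a log2FC with GRH of -1.53 in Ilpum (-2.51 to -0.52) and -1.31 in NIL (-1.81 to -0.83). Os02g0782500 had 22.5, 15.1, 102 and 32.6 FPKM from 42, 12, 441 and 34 reads. Its log2FC was -1.61 in NIL (-2.14 to -1.09) and -0.54 in Ilpum, where the interval of -1.62 to 0.39 spanned 0. The remaining gene, Os02g0217900, was listed at 0 in every library.

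**Figure D2:**
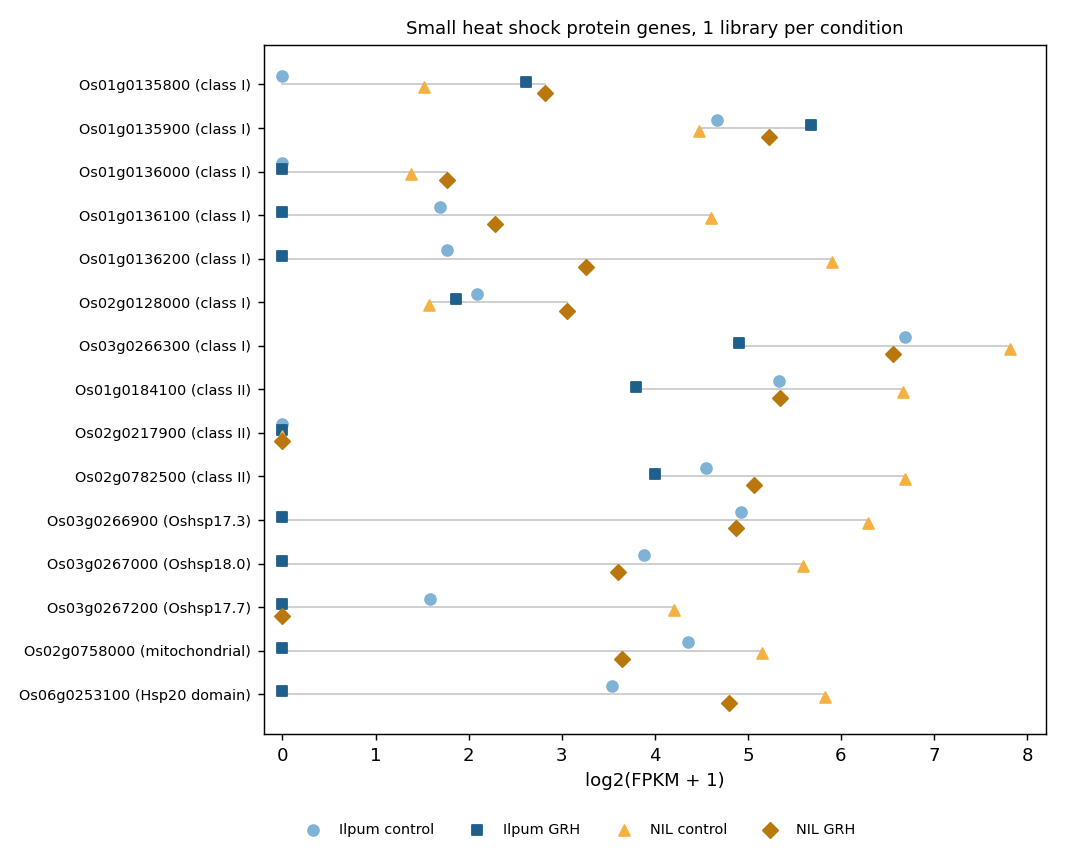
Level as log2(FPKM + 1) of the 10 class I and II sHSP genes and of 5 other small heat shock protein genes, with 1 point for each library and a grey line from the lowest to the highest. NIL control (triangles) is the highest point for 5 of the 9 read class I and II genes (55.6%, all genes 21.4%). The 5 other genes were picked by hand, and each has NIL control highest and Ilpum GRH (squares) at 0. In the group that they come from, NIL control was highest for 8 of 18 read genes (44.4%).

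The other HSP20 genes were of several kinds with different patterns. Those described only by an HSP20-like chaperone domain, a fold that co-chaperones such as p23 also have, were level: 5 genes summed to 260, 261, 233 and 261 FPKM in the 4 libraries, and of the 4 read genes, 0 were 2-fold apart in Ilpum and 1 was higher in NIL. The most abundant, Os03g0277100, had 193, 184, 169 and 179 FPKM, and all 4 of its log2FC values lay between -0.19 and 0.08. Among the remaining 25 genes, of which 18 passed the filter, 9 were lower and 3 higher with GRH in Ilpum, and 7 lower and 4 higher in NIL. As shares these were 50.0% and 16.7% in Ilpum, where all genes gave 28.6% and 20.4%, and 38.9% and 22.2% in NIL, where all genes gave 20.9% and 14.7%. Their summed FPKM was 197, 155, 355 and 195.

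Of these, 3 stand next to Os03g0266300, within 32961 bp on chromosome 3 (8805567 to 8838527), and showed its order of libraries. Os03g0266900 (Oshsp17.3) had 29.3, 0, 77.3 and 28.2 FPKM from 49, 0, 305 and 26 reads, at least 6.89-fold lower with GRH in Ilpum and with a log2FC of -1.42 in NIL (-2.08 to -0.87). Os03g0267000 (Oshsp18.0) had 13.7, 0, 47.2 and 11.2 FPKM, at least 3.10-fold lower in Ilpum and -1.98 in NIL (-3.11 to -1.11). Os03g0267200 (Oshsp17.7) was read only in the control libraries, with 2.00 and 17.4 FPKM from 4 and 65 reads, and was at least 5.03-fold lower with GRH in NIL. In each of the 4 genes NIL control was the highest library.

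The mitochondrial sHSP gene Os02g0758000, whose protein is imported into that organelle, had 19.4, 0, 34.6 and 11.5 FPKM from 48, 0, 201 and 16 reads. It was at least 6.75-fold lower with GRH in Ilpum, and its log2FC in NIL was -1.51 (-2.38 to -0.81). Os06g0253100, with an Hsp20 domain, had 10.6, 0, 55.9 and 26.8 FPKM, at least 2.39-fold lower in Ilpum and -1.03 in NIL (-1.71 to -0.42). Os07g0517100 differed from these in that Ilpum control was its highest library. It had 31.1, 9.59, 16.3 and 0 FPKM from 56, 9, 71 and 0 reads, with a log2FC of -1.60 in Ilpum (-2.59 to -0.37) and at least 5.50-fold lower in NIL.

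The rule did not use gene structure, in which the sHSPs and their relatives had a trait in common. Of the 10 class I and II genes, 8 (80.0%) have only transcripts with a single exon, as do 14 of the 30 other HSP20 genes (46.7%), which include 3 of the 5 with the HSP20-like chaperone domain, against 29.8% of all genes. Among the HSP70 and DnaJ genes the shares were 14.3% and 15.9%, while 0 of the HSP90, ClpB/HSP101 and HSF genes do. This is a description of the annotation, since the genes are related copies.

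Among the HSP70 genes, abundant constitutive members stood beside members that followed the sHSP order. Of 18 read genes, 7 were lower with GRH in Ilpum (38.9%, all genes 28.6%) and 4 in NIL (22.2%, near the 20.9% of all genes). None was higher in either line, where all genes gave 20.4% and 14.7%, and 10 had NIL control as the highest library. In NIL against Ilpum, 6 were higher (33.3%, all genes 14.1%) and 1 lower without GRH, and 7 were higher (38.9%, all genes 25%) and 1 lower with GRH. The summed FPKM was 2381, 1680, 3075 and 2710, lower by 1.42-fold with GRH in Ilpum and by 1.13-fold in NIL.

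The widest range belonged to Os03g0277300, on chromosome 3 (9411494 to 9416082), with 40.8, 3.37, 204 and 33.5 FPKM from 225, 9, 2659 and 102 reads. Its log2FC with GRH was -3.26 in Ilpum (-4.55 to -2.45) and -2.57 in NIL (-2.90 to -2.31), and NIL exceeded Ilpum by 2.30 without GRH (2.12 to 2.52). Os01g0840100 had 33.8, 5.56, 134 and 45.7 FPKM, with -2.41 (-3.55 to -1.73) and -1.53 (-1.80 to -1.27). Os03g0218500 had 12.6, 2.80, 50.3 and 10.6 FPKM, with -1.84 (-3.63 to -0.92) and -2.14 (-2.82 to -1.69). In all 3 genes NIL control was the highest and Ilpum GRH the lowest library.

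Os01g0180800 had 161, 76.0, 408 and 204 FPKM from 545, 139, 3052 and 368 reads, close to 2-fold lower in each line, with -1.07 in Ilpum and -1.0 in NIL. Its FPKM ratio in Ilpum lay outside the interval of the read ratio (-1.01 to -0.46), which happens where a gene's reads are assigned to transcripts of other lengths. The organelle forms, which help import and fold proteins in mitochondria and chloroplasts, differed among themselves. The mitochondrial gene Os03g0113700 had 18.7, 13.5, 89.7 and 25.5 FPKM, with -1.77 in NIL (-2.15 to -1.46) and -0.44 in Ilpum (-1.06 to 0.14), whereas the mitochondrial gene Os02g0774300 stayed between 39.3 and 53.2 FPKM. The chloroplast gene Os05g0303000 had 143, 86.9, 206 and 150 FPKM.

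The most abundant HSP70 genes showed another order. Os11g0703900 had 1082, 483, 777 and 711 FPKM from 5681, 1093, 9667 and 2057 reads, the most of any member, and its highest library was Ilpum control. Its log2FC with GRH was -1.16 in Ilpum (-1.23 to -1.04) and -0.13 in NIL (-0.20 to -0.06). Os03g0276500, also described as HSP70, was higher with GRH in each line, with 306, 432, 490 and 968 FPKM, a log2FC of 0.50 in Ilpum (0.42 to 0.65) and 0.98 in NIL (0.92 to 1.05). The heat shock cognate gene Os03g0821100, a non-cell-autonomous form by its description, stayed between 160 and 219 FPKM.

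The HSP90 group had constitutive genes beside a pair of genes with a wide range, Os04g0107900 and the ATPase activator Os08g0464000. Of 9 read genes, 2 were lower (22.2%, all genes 28.6%) and 1 higher (11.1%, all genes 20.4%) with GRH in Ilpum, and 1 lower (11.1%, all genes 20.9%) and 0 higher (all genes 14.7%) in NIL. Higher in NIL were 4 without GRH (44.4%, all genes 14.1%) and 5 with GRH (55.6%, all genes 25%). Os04g0107900, the HSP82-like or HSP81-1 gene on chromosome 4 (483234 to 485978), had 12.7, 0, 91.3 and 2.96 FPKM from 20, 0, 390 and 2 reads. It was at least 2.81-fold lower with GRH in Ilpum, its log2FC in NIL was -4.54 (-8.55 to -3.64), and NIL exceeded Ilpum by 2.75 without GRH (2.39 to 3.76). Nearly all of its reads came from NIL control, which was also the deepest library. By FPKM, which allows for depth, the control libraries stood at 12.7 in Ilpum and 91.3 in NIL.

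The abundant HSP90 genes on chromosome 9 differed little between libraries. Os09g0482100 had 456, 293, 373 and 320 FPKM, Os09g0482400 had 314, 234, 295 and 260, and Os09g0482600 had 285, 205, 246 and 253. All log2FC values of these genes with GRH lay between -0.64 and 0.04. The value of Os09g0482600 in NIL depends on transcript length. Its longer transcript was assigned 2430 reads in NIL control and 225 in NIL GRH, and its shorter one 403 and 329. Os08g0500700, described like HSP82, was higher in NIL at 115, 99.0, 261 and 249 FPKM, with a line difference of 1.17 without GRH (1.06 to 1.28) and 1.32 with GRH (1.10 to 1.48). Its log2FC with GRH was -0.22 in Ilpum and -0.07 in NIL.

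Os06g0716700, an HSP90 gene with 3 annotated transcripts, had 92.1, 189, 191 and 228 FPKM. Its log2FC of 1.03 in Ilpum exceeded the interval of the read ratio, 0.43 to 0.83, as 515 of its 539 reads were assigned to the longest transcript in Ilpum control and 245 of 352 to a shorter one in Ilpum GRH. Of the activators of the HSP90 ATPase, Os02g0139100 had 10.7, 15.1, 39.7 and 59.2 FPKM and was higher in NIL by 1.80 without GRH (1.28 to 2.52) and 1.90 with GRH (1.13 to 2.79). Os08g0464000 had 21.6, 1.43, 30.3 and 24.6 FPKM from 70, 3, 207 and 44 reads, with -3.22 in Ilpum (-5.61 to -1.69) and -0.29 in NIL (-0.63 to 0.35).

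The HSP101 disaggregase followed the sHSPs. Os05g0519700, annotated with long-term acquired thermotolerance (chromosome 5, 25803609 to 25807160, minus strand), had 10.3, 0, 24.3 and 2.05 FPKM from 53, 0, 400 and 8 reads. It was at least 7.46-fold lower with GRH in Ilpum, and its log2FC in NIL was -3.05 (-4.76 to -2.55). Os03g0426900, described also as the chloroplast form ClpB-p, had 50.0, 26.5, 98.2 and 42.6 FPKM, with -0.89 in Ilpum (-1.07 to -0.35) and -1.19 in NIL (-1.42 to -0.96). NIL control was the highest library for both, and the third gene of the group had no read.

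**Figure D3:**
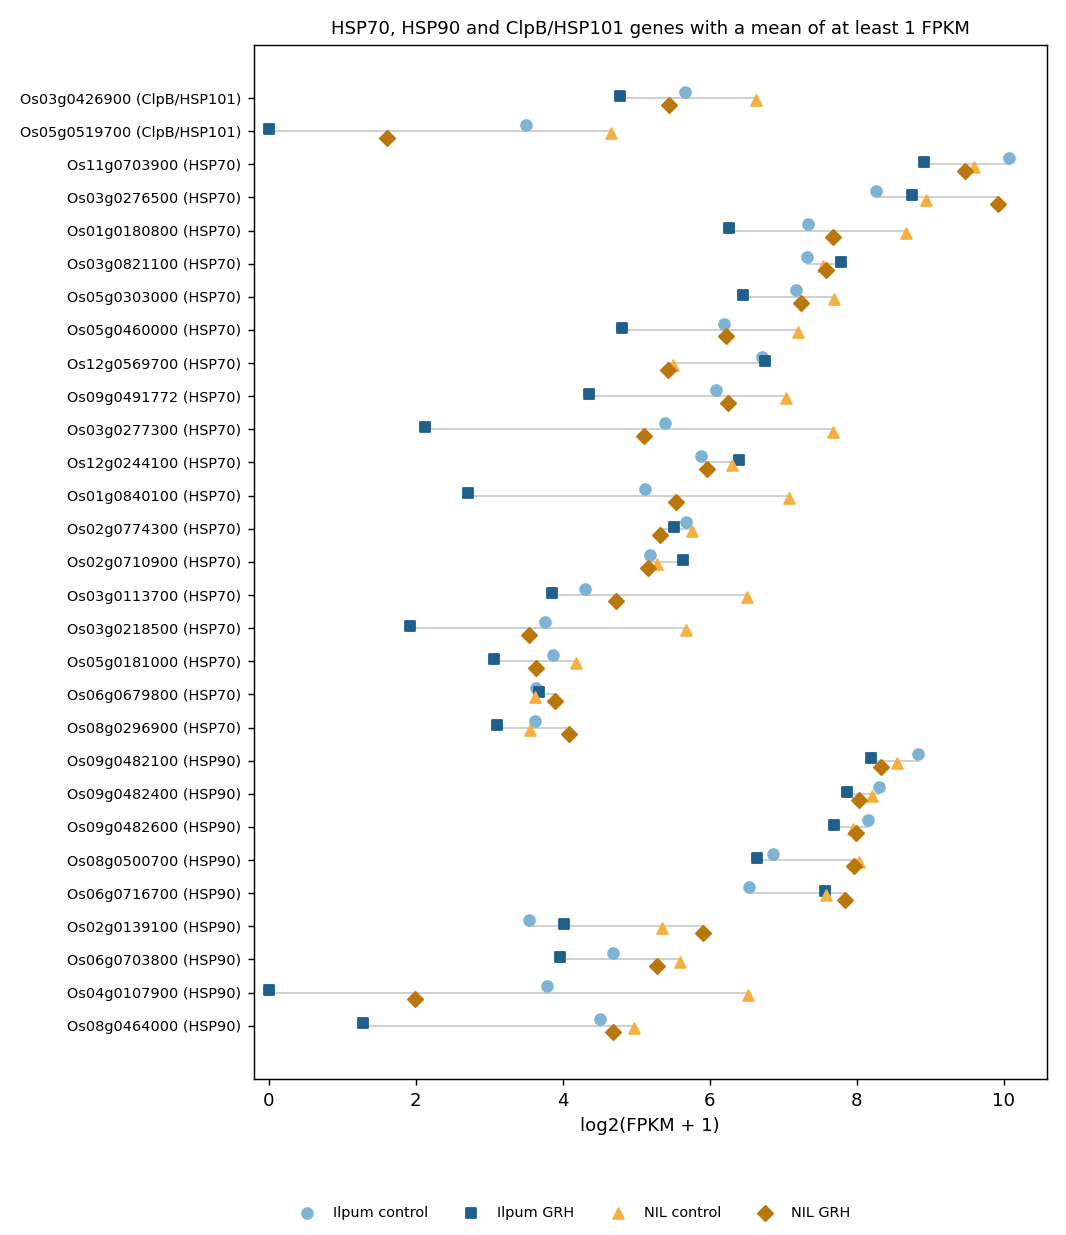
Level as log2(FPKM + 1) of the 2 ClpB/HSP101, 18 HSP70 and 9 HSP90 read genes, ordered by mean level within a family, 1 point per library. Abundant genes such as Os09g0482400 keep their points together, while Os03g0277300, Os04g0107900 and Os05g0519700 spread over more than 4 log2 units.

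The DnaJ genes, whose proteins stimulate the ATPase of HSP70, had shares near those of all genes on the lower side and below them on the higher side. Of 55 read genes, 15 (27.3%) were lower and 5 (9.09%) higher with GRH in Ilpum, where all genes gave 28.6% and 20.4%. In NIL, 13 (23.6%) were lower and 4 (7.27%) higher, where all genes gave 20.9% and 14.7%. Between the lines 6 (10.9%) were higher and 6 lower in NIL without GRH, where all genes gave 14.1% and 14.0%, and 10 (18.2%) were higher and 10 lower with GRH, where all genes gave 25% and 23.7%. The summed FPKM of 1721, 1669, 1647 and 1456 was nearly level. The most abundant, Os06g0650900, had 284, 449, 286 and 281 FPKM, and Os02g0506600 had 224, 259, 179 and 170.

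Some DnaJ genes were nevertheless lower in both lines. Os05g0110100, with a cysteine-rich domain, had 152, 66.8, 164 and 45.6 FPKM from 243, 46, 620 and 40 reads, and a log2FC of -1.18 in Ilpum (-1.64 to -0.70) and -1.83 in NIL (-2.35 to -1.39). Between the control libraries of the lines it differed by 0.11 (-0.11 to 0.32). Os06g0195800 was read only in the controls, with 9.84 FPKM in Ilpum and 38.8 in NIL, and was at least 13.1-fold lower with GRH in NIL and 2.53-fold in Ilpum. Os05g0334400, annotated with chloroplast development, was read only in the controls too, with 7.64 and 7.52 FPKM, and was lower by at least 4.36-fold in the Ilpum pair and 5.65-fold in the NIL pair.

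Os05g0333500 had 8.29, 1.67, 7.23 and 1.72 FPKM, and Os03g0761700 had 7.74, 1.61, 6.11 and 1.11 FPKM. The log2FC of the former was -1.80 in Ilpum (-4.06 to -0.65) and -1.59 in NIL (-3.57 to -0.63), and that of the latter -1.74 (-3.95 to -0.53) and -1.76 (-4.07 to -0.75). The control libraries of the lines differed by -0.17 (-0.83 to 0.31) and -0.30 (-0.81 to 0.37) in these genes, whereas most of the sHSPs above were higher in NIL. Os02g0128400 had 9.04, 0, 14.0 and 11.9 FPKM from 35, 0, 126 and 25 reads, at least 4.92-fold lower in Ilpum and -0.23 in NIL (-0.91 to 0.40). Os03g0822800 had 9.40, 0, 4.19 and 3.25 FPKM.

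**Figure D4:**
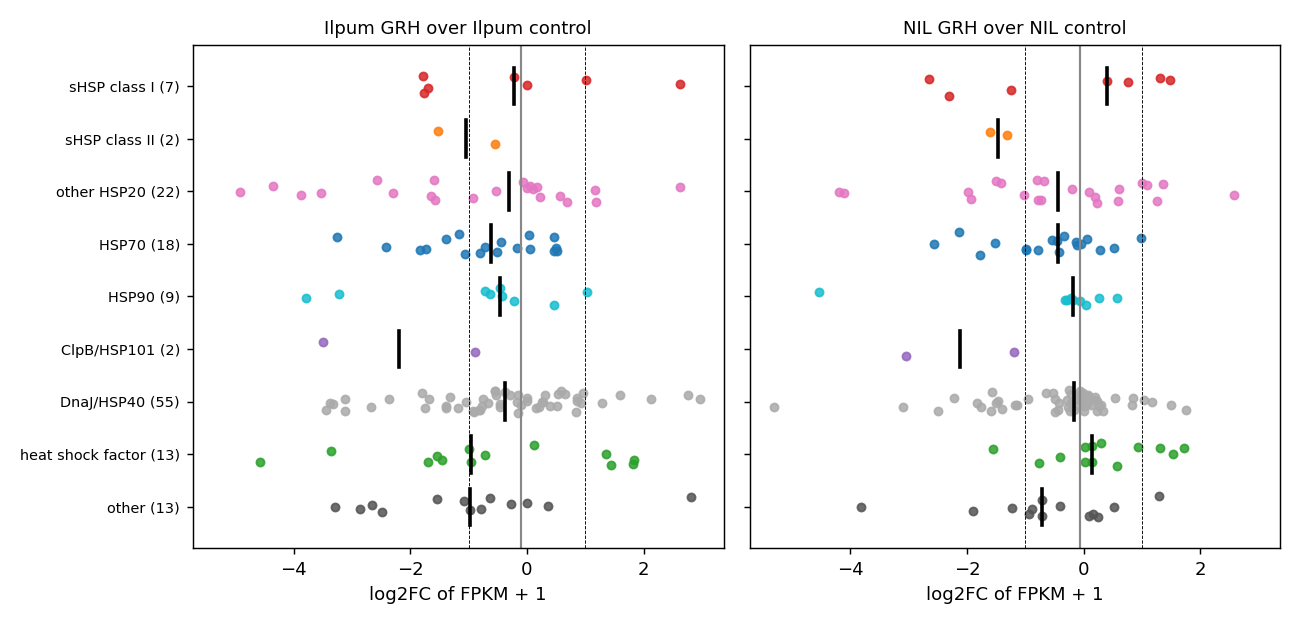
Log2FC of FPKM + 1 with GRH for each read member, by role (number of genes in brackets), in Ilpum (left) and NIL (right). Points are genes with a vertical scatter for visibility, black bars are medians of the role, the grey line is the median of all 18575 genes and dashed lines mark 2-fold.

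The heat shock factor group varied from gene to gene in Ilpum, and most of its genes were higher in NIL than in Ilpum after GRH. Of 13 read genes in this group, a pair of which encode HSF-binding proteins, 5 were lower (38.5%, all genes 28.6%) and 4 higher (30.8%, all genes 20.4%) with GRH in Ilpum, and 1 lower (7.69%, all genes 20.9%) and 3 higher (23.1%, all genes 14.7%) in NIL. With GRH, 9 were higher in NIL than in Ilpum (69.2%, all genes 25%) and 1 lower, and of the 11 factors alone 7 were higher (63.6%). Without GRH 2 of the 13 were higher (15.4%, all genes 14.1%) and 1 lower. Their summed FPKM was 414, 315, 515 and 598, and NIL GRH was the highest library for 6 of them.

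In each line 3 of the 11 read factors were at least 2-fold higher with GRH (27.3%, all genes 20.4% in Ilpum and 14.7% in NIL). Higher in both lines were 2 of them, where all genes gave 6.20%, and both have Spl7 in their descriptions. Spl7 is the gene of a rice spotted-leaf mutant, in which lesions form without a pathogen. Os05g0530400, described as Spl7, had 7.73, 21.3, 2.11 and 9.19 FPKM from 34, 40, 22 and 22 reads, with a log2FC of 1.35 in Ilpum (0.78 to 2.18) and 1.71 in NIL (1.18 to 3.03). Os09g0456800, similar to Spl7, had 18.4, 51.3, 10.6 and 27.8 FPKM, with 1.43 (1.01 to 2.01) and 1.3 (0.88 to 1.91). Each was lower in NIL than in Ilpum, by -1.49 (-2.72 to -1.06) and -0.73 (-1.27 to -0.30) without GRH. Another gene with this name in its description, Os04g0568700, had 9.29, 0, 18.9 and 10.7 FPKM from 24, 0, 116 and 16 reads, at least 3.38-fold lower in Ilpum and -0.76 in NIL (-1.61 to 0.01).

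Os01g0571300, similar to factor 31, was lower in both lines, with 20.1, 5.48, 39.6 and 12.9 FPKM and a log2FC of -1.70 in Ilpum (-2.86 to -0.66) and -1.55 in NIL (-2.28 to -1.02). Os02g0232000, similar to factor 29, had the largest line difference of the group without GRH. It had 6.50, 25.5, 92.7 and 114 FPKM from 20, 34, 676 and 195 reads, so that NIL exceeded Ilpum by 3.64 without GRH (3.19 to 4.55) and by 2.12 with GRH (1.60 to 2.70). With GRH it was higher by 1.82 in Ilpum (1.17 to 2.88) and by 0.30 in NIL (0.08 to 0.54). Os02g0527300 was level, at 85.0, 92.1, 88.4 and 90.1 FPKM.

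Some further factors, chosen after their values were seen, were lower with GRH in Ilpum but not in NIL. Os09g0526600, similar to the class B factor B-2c, had 57.3, 19.1, 76.2 and 83.7 FPKM from 199, 27, 613 and 162 reads, with a log2FC of -1.54 in Ilpum (-2.27 to -1.05) and 0.13 in NIL (-0.07 to 0.44). Os01g0733200, similar to factor 29, had 80.4, 28.5, 43.1 and 64.1 FPKM from 196, 30, 249 and 87 reads, with -1.46 in Ilpum (-2.07 to -0.90) and 0.56 in NIL (0.22 to 0.95). Os02g0496100, with an HSF-type DNA-binding domain, had 12.7, 6.08, 10.6 and 32.5 FPKM from 48, 10, 95 and 68 reads, with -0.95 (-2.17 to -0.02) and 1.53 (1.15 to 2.09). Between the infested libraries NIL was higher by 2.08, 1.14 and 2.24 on the log2 scale, and the difference between the responses of the lines was not tested.

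HSF-binding proteins hold back HSFs in Arabidopsis. Os09g0375100 had 2.93, 13.0, 20.8 and 40.5 FPKM from 12, 24, 71 and 40 reads, and Os06g0274000 had 22.7, 0, 25.8 and 19.1 FPKM from 34, 0, 89 and 16 reads. The former was higher with GRH, by 1.83 in Ilpum (1.19 to 3.38) and 0.93 in NIL (0.68 to 1.86). The latter was at least 4.78-fold lower in Ilpum, and in NIL its log2FC was -0.42 (-1.24 to 0.41). In NIL the second annotated transcript of Os09g0375100 was read and in Ilpum it was listed at 0, so that its FPKM difference between the lines depends on transcript length.

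**Figure D5:**
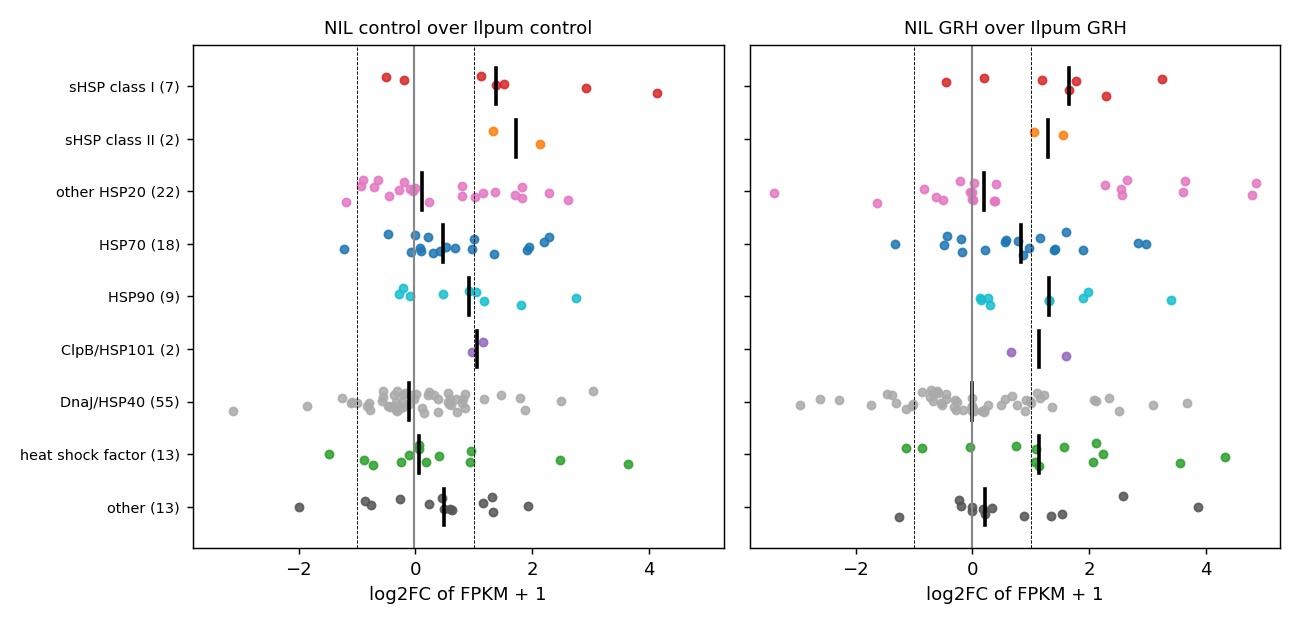
Log2FC of FPKM + 1 in NIL over Ilpum for each read member, by role (number of genes in brackets), without GRH (left) and with GRH (right), drawn as in the plot of responses by role. The class I and II sHSPs had 7 genes beyond 2-fold on the NIL side in each panel and 0 on the Ilpum side. Some of these had few reads, and of the 6 that averaged 25 reads or more, 5 lay on the NIL side in each panel.

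Of the 13 other read members, 6 were lower (46.2%, all genes 28.6%) and 1 higher with GRH in Ilpum, and 3 lower (23.1%, near the 20.9% of all genes) and 1 higher in NIL. The share of the single higher gene was 7.69%, where all genes gave 20.4% in Ilpum and 14.7% in NIL. Os02g0644100, similar to STI, the adaptor that joins HSP70 to HSP90, had 39.1, 22.1, 59.1 and 66.3 FPKM, with -0.80 in Ilpum (-1.5 to -0.46) and 0.16 in NIL (-0.04 to 0.46). Os11g0216100, a heat shock protein binding protein by its description, had 188, 88.1, 103 and 77.3 FPKM. Os12g0514500, described as a heat-shock protein precursor, had 24.7, 24.7, 56.1 and 28.8 FPKM. Os07g0481200, a calmodulin-binding member, was read only in the controls, with 4.59 and 13.1 FPKM, and was at least 5.50-fold lower with GRH in NIL.

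Genes that work with these chaperones but carry none of the words of the rule were searched by other words. Of 48 read chaperone partners (FKBP-type isomerases, GrpE, chaperonins, SGT1 and the like), 15 were lower (31.3%, near the 28.6% of all genes) and 8 higher (16.7%, all genes 20.4%) with GRH in Ilpum, and 19 lower (39.6%, all genes 20.9%) and 6 higher (12.5%, all genes 14.7%) in NIL. In NIL against Ilpum, 15 were higher (31.3%, all genes 14.1%) and 2 lower (4.17%, all genes 14.0%) without GRH, and 15 were higher (31.3%, all genes 25%) and 9 lower (18.8%, all genes 23.7%) with GRH. The FKBP gene Os04g0352400, whose product is an isomerase of peptide bonds, had 1.90, 0, 18.0 and 0 FPKM from 10, 0, 204 and 0 reads, and the FKBP gene Os02g0751600 had reads in NIL control alone, 76 of them. The FKBP gene Os01g0564300 went the other way, with 0, 12.6, 1.68 and 8.22 FPKM from 0, 20, 14 and 16 reads. It was higher with GRH in each line, with a log2FC of 3.76 in Ilpum and 1.78 in NIL. The GrpE gene Os02g0612000 had 5.53, 7.89, 13.5 and 0 FPKM from 13, 8, 75 and 0 reads. Of 12 genes of folding in the endoplasmic reticulum, 2 were lower (16.7%, all genes 28.6%) and 1 higher (8.33%, all genes 20.4%) in Ilpum, and 1 lower (8.33%, all genes 20.9%) and 0 higher (all genes 14.7%) in NIL. The protein disulfide isomerase gene Os11g0199200 had 174, 379, 309 and 354 FPKM.

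Of 14 other heat-response genes, 4 were lower (28.6%) and 2 higher (14.3%) in Ilpum, and 3 lower (21.4%) and 1 higher (7.14%) in NIL. The lower shares were about those of all genes, 28.6% and 20.9%, and the higher shares were under the 20.4% and 14.7% of all genes. The DREB2F-like gene Os04g0648900, a dehydration-responsive factor, had 64.7, 31.1, 26.6 and 89.4 FPKM from 168, 35, 164 and 128 reads. It was lower with GRH in Ilpum, with -1.03 (-1.59 to -0.49), and higher in NIL, with 1.71 (1.40 to 2.09).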

How the data were processed

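Leaf RNA from 4 conditions was sequenced as paired ends, and values of 1 library per condition were deposited. Per the file headers, the authors aligned with HISAT and ran StringTie 1.3.4d on the RAP-DB transcripts of IRGSP-1.0, the submitters' processing notes name Trimmomatic, and the methods of the paper name other tools (Trinity, edgeR). The authors deposited FPKM, which were the main values here. The deposited TPM and coverage come from the same runs. The deposited estimated count of a transcript is its coverage times its length over a read length of 101, rounded up. It was used as deposited and only for intervals, floors and alternatives. Gene values are sums over 44643 transcripts.

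With 1 library per condition, differences were computed as log2 of FPKM with 1 added, wherever a gene averaged 1 FPKM or more, and counted at 2-fold. Exact 95% Clopper-Pearson intervals of read ratios and a floor of 3 reads per library give counting error only. Python 3.11.15, scipy 1.17.1 and edgeR 4.0.16 (TMM factors) were used, and the steps were tested on simulated data. Genes picked for naming were all class I and II sHSPs. In each other role they were the 3 most abundant and up to 3 with the largest log2FC (at least 20 reads in the line). Also picked were members 2-fold different in the same or opposite directions in both lines with a mean of at least 25 reads, and up to 4 genes per partner list. Not all picked genes are described. Among those left out are the HSF gene Os03g0854500, the HSP20 gene Os01g0840200, and genes of the lists of endoplasmic reticulum folding and other heat response. Other genes were named after their values were seen. The members and lists were chosen with earlier results of these data known. Alternatives were other pseudocounts, filters, thresholds, scalings and units. No sequences of these genes were used here.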

Additional observations from a re-analysis of the deposited data

Results flagged for a closer look

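In 6 of the 141 read members the lines lay on opposite sides with counting intervals that excluded 0 in each, and these differences between the lines were not tested. The share of all genes by this rule was not computed. By the 2-fold rule, 4 of the 141 members lay in opposite directions, where all genes gave 6.03%. Os02g0782300, a heat shock-like protein gene, had a log2FC with GRH of -2.86 in Ilpum (interval -4.76 to -1.42) and 0.53 in NIL (0.06 to 0.80), from 27.9, 2.98, 39.5 and 57.4 FPKM in the order used above. The HSF genes described above were Os01g0733200, with -1.46 in Ilpum and 0.56 in NIL, and Os02g0496100, with -0.95 and 1.53. Os12g0456200, with a heat shock cognate protein B domain, had -3.30 in Ilpum and 1.29 in NIL (0.24 to 3.28), from 26, 0, 10 and 8 reads, so that its listed 0 in Ilpum GRH sets the former value. In the other direction lay the DnaJ gene Os03g0136800, with 1.59 in Ilpum (1.06 to 2.32) and -0.96 in NIL (-2.11 to -0.05), and the HSP20-like chaperone domain gene Os01g0151100, with 0.57 (0.08 to 1.18) and -0.73 (-1.23 to -0.28). Searching for samples far from their group was not possible with 1 library per condition.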

How the results depend on the processing

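Of 80 counts of members recomputed under 10 alternatives, 57 stayed within 1.5 times the main count. With a 4-fold threshold, 6 members were higher and 24 lower with GRH in Ilpum, 1 and 13 in NIL, and 12 were higher and 1 lower in NIL without GRH and 26 and 4 with GRH. With a mean of at least 5 FPKM, 8 members were higher with GRH in NIL, and 6 were lower in NIL than in Ilpum without GRH. Among genes with a single annotated transcript, 32 were lower in Ilpum. Minimums of reads were chosen after seeing the data. With a mean of at least 25 reads, 9 members were higher in Ilpum and 6 in NIL, and 6 were lower in NIL than in Ilpum without GRH and 8 with GRH. With at least 100 reads (61 members), 2 were higher and 19 lower in Ilpum and 0 and 13 in NIL, 15 higher and 1 lower in NIL without GRH, and 23 and 1 with GRH. Fewer genes enter under such minimums. Pseudocount 0.1, no filter, TPM, TMM-scaled reads and quantile-normalized FPKM moved no count by more than 1.5 times. TMM scaling set the median of all genes in the NIL response to -0.20 in place of -0.06, and that of the members to -0.39 in place of -0.20. The share lower in both lines was 4.96 to 20.2% of members and 2.58 to 11.5% of all genes over the settings, the lowest with the 4-fold threshold. Named members gave 440 log2FC values under pseudocount 0.1, TPM, TMM-scaled reads and quantile-normalized FPKM, the only alternatives used for them. Of these, 413 stayed within their counting interval and 0 changed sign at 2-fold or more. Where a library is listed at 0 the interval has no limit on that side, so a larger change stays within it. Os03g0266900 in Ilpum, for example, went from -4.92 to -8.20 with pseudocount 0.1. No paired analysis was possible because each condition had 1 library, and for the same reason leaving out a library gave no value. The shallowest library, Ilpum GRH, limits what a listed 0 shows.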
